A study of Rattus norvegicus with 23 samples.

Results

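The calmodulin-dependent kinases (CaM kinases) of the rat hippocampus are described here as 10 genes, chosen by symbol from the annotation of the array. They are Camk1, Camk1d and Camk1g of CaM kinase I, Camk2a, Camk2b, Camk2d and Camk2g of CaM kinase II, Camk4, and the CaM kinase kinase genes Camkk1 and Camkk2. The array reads them with 11 of its 29211 probe sets, since Camk1d has 2 (10796307 and 10796324). All 11 were among the 13339 probe sets tested, which carry 1 gene symbol and pass a minimum signal of 40 on 4 or more arrays.

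RNA from the dorsal hippocampus of 23 male F344 rats was hybridized to Affymetrix Rat Gene arrays, 1 array for each rat. LT (n = 6) and ST (n = 6) rats carried an adeno-associated virus (AAV) that expresses FKBP1b, a protein that restrains calcium release from internal stores, for a long or a short term. AC rats (n = 5) were aged controls with an AAV for the fluorescent protein eGFP, and YC rats (n = 6) were young controls. Both vectors were injected into both hippocampi, and both used a CaMKII promoter, which drives expression mainly in excitatory neurons. All aged rats were 21 months old and the young rats 5 to 6 months. By the sample labels the vector was given at 12 months of age to LT rats (9 months of exposure), at 18 months to ST rats (3 months) and at 18 months to AC rats (3 months). By the series' design text these ages were 13 months for LT, 19 for ST and 13 for AC, so the time since surgery of the AC rats is not settled. YC rats are labelled as sham treated and had no injection by the methods, so AC vs YC mixes age with surgery and with the eGFP vector. The eGFP vector had the higher titer, so LT or ST vs AC mixes transgene with titer. The LT and ST rats were taken from those with FKBP1b expression above their group's median. Signal of the Fkbp1b probe set averaged 1002 ± 147 in LT and 694 ± 153 in ST (SD, n = 6 each), against 401 ± 40 in AC (SD, n = 5) and 373 ± 20 in YC (SD, n = 6). The paper states that this array has no FKBP1b probe set and measured the gene by qRT-PCR, so this probe set rests on the annotation used here.

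Calcium that enters a neuron binds calmodulin, and calcium-loaded calmodulin switches these kinases on. CaM kinase II is a large ring-shaped holoenzyme that can keep itself active by autophosphorylation, is among the most abundant proteins of excitatory synapses and is needed for hippocampal long-term potentiation and spatial memory. CaM kinase I and CaM kinase IV are instead activated by CaM kinase kinases, which phosphorylate them; CaM kinase IV works in the nucleus, where it phosphorylates the transcription factor CREB, and CaM kinase I works mainly in the cytoplasm, where it has been tied to the growth of axons and dendrites.

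Several arrays stood apart before any comparison was made. AC replicate 5 had the lowest signal of all 23 arrays for 16.7% of the tested probe sets. Its list score (mean log2 signal of a list's genes, each relative to its mean over the 23 arrays) was -0.45 for markers of CA1 pyramidal neurons and -0.59 for dentate granule neurons, against -0.11 to 0.16 and -0.15 to 0.18 on the other 22 arrays. Of the 5 CA1 genes Wfs1 (580, mean 2594 over all arrays) and Pou3f1 (173) were lowest there, while Fibcd1 (905) was highest, and the scores of general pyramidal neurons (-0.06) and of CA3 and CA2 neurons (0.02) lay within the range of the other arrays. Its score for microglia was 0.96, against -0.36 to 0.40 elsewhere. For oligodendrocytes it was -0.50, against -0.12 to 0.13, and for astrocytes 0.15, against -0.09 to 0.08. The microglia score ran from -0.04 to 0.29 in LT, from -0.06 to 0.40 in ST, from -0.02 to 0.96 in AC and from -0.36 to -0.25 in YC, so every aged array lay above every YC array. A further 4 arrays, LT replicates 2 and 5 and AC replicates 3 and 4, had choroid plexus scores of 2.64 to 3.21, and the next highest was 0.51 on LT replicate 1. RNA integrity numbers were 8.9 to 9.5 in LT, 9.4 to 9.7 in ST, 8.9 to 9.8 in AC and 9.4 to 9.5 in YC, with AC replicate 5 at 8.9. Hippocampal neuron markers were present on every array, with Slc17a7, the vesicular glutamate transporter of excitatory neurons, at 4064 to 5764 (highest on AC replicate 5).

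In old control animals compared with young ones, 1 CaM kinase I gene had a higher signal and 2 others had lower ones. Camk1 was higher in AC than in YC by 0.17 on the log2 scale, whereas Camk1g was lower by 0.35 and 1 of the 2 Camk1d probe sets was lower by 0.21. No CaM kinase II, Camk4 or CaM kinase kinase probe set passed the test. The methods' one-way analysis, adjusted in the same way, called none of the 11, with adjusted p values of 0.0531 for Camk1, 0.0511 for Camk1d and 0.0581 for Camk1g. The test was limma on log2 signals over all 23 arrays, with p values adjusted by the Benjamini-Hochberg method over the 13339 probe sets, and "called" means an adjusted p under 0.05. The 3 calls among 11 probe sets (27.3%) stand beside 9.75% of all tested probe sets in AC vs YC. By direction, 1 member was called higher, where 5.56% of all probe sets were, and 2 lower, where 4.18% were. No member had AC and YC arrays without overlap, which 5.09% of all probe sets had. The median difference of the members was -0.11, with 9 of 11 below 0, while the median of all probe sets was -0.0062 and 52.5% were below 0. Across the 4 groups, 3 of 11 members reached an unadjusted p of at most 0.05 in the F test, close to the 24.2% of all probe sets that did, and 0 of 11 passed after adjustment, against 5.46% of all.

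**Figure D1:**
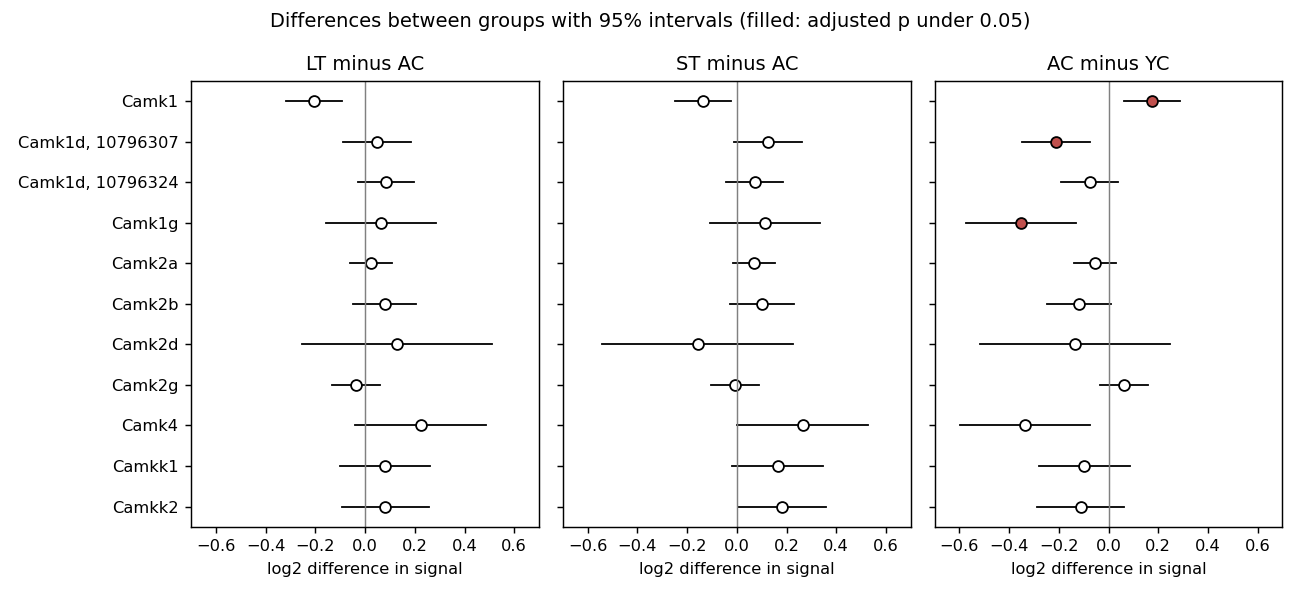
Log2 differences in signal (horizontal axes) of the 11 CaM kinase probe sets (rows) for LT minus AC, ST minus AC and AC minus YC. Points are limma estimates, lines are 95% intervals and filled points passed an adjusted p of 0.05, which only Camk1, Camk1d probe set 10796307 and Camk1g did, all in AC minus YC.

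Camk1 encodes the alpha form of CaM kinase I. Its signals ran from 213 (median 226.5) to 238 in LT and from 218 (median 238) to 256 in ST. They were 238, 273, 246, 248 and 304 on the AC arrays (replicates 1 to 5), and ran from 219 (median 228.5) to 245 in YC. On this probe set 4 of 5 AC arrays lay above every YC array, and 5 of 6 LT arrays lay below every AC array, while ST overlapped both. AC was 0.17 above YC (standard error 0.054, fold 1.13, adjusted p = 0.0454 from limma). LT was -0.21 from AC (standard error 0.054, fold 0.867, unadjusted p = 0.000983, adjusted p = 0.129) and ST was -0.13 from AC (unadjusted p = 0.0213, adjusted p = 0.442), so neither passed. In order of group means, AC (262 ± 27, n = 5) was followed by ST (238 ± 14), YC (231 ± 9.9) and LT (226 ± 10, SD, n = 6 each), and no neighbours in this order differed past the threshold. All 3 comparisons with AC use the same 5 AC arrays. Camk1 had r = 0.546 with the microglia score over 23 arrays (rho = 0.269, adjusted p = 0.051 and 0.387 by permutation), 0.0994 without AC replicate 5 and 0.122 without the 2 farthest arrays. Camk1 decreased with the oligodendrocyte score (r = -0.639, rho = -0.322, adjusted p = 0.0348 and 0.277 by permutation). It also decreased with the CA1 score (r = -0.601, rho = -0.201, adjusted p = 0.0386 and 0.527 by permutation). Without AC replicate 5 these r were -0.17 and -0.152. With the endothelium score r was 0.555 (rho = 0.488, adjusted p = 0.0353 and 0.0509 by permutation), 0.412 without AC replicate 5 and 0.704 without the 2 farthest arrays. Within groups it was 0.275 in LT, -0.633 in ST and 0.71 in YC (n = 6 each). The median endothelium score was -0.05 in LT, -0.003 in ST, 0.31 in AC and -0.14 in YC. Its part in the differences of Camk1 was not tested. The highest AC array, replicate 5, entered each of the 3 comparisons with AC: without it AC vs YC was 0.12 (adjusted p = 0.0992) and LT vs AC was -0.15 (adjusted p = 0.185). The call in AC vs YC was also lost without any 1 of 12 other arrays (YC replicates 1, 2, 4, 5 and 6, AC replicates 2 and 4, ST replicates 2, 3 and 6, LT replicates 1 and 6), with adjusted p values of 0.0505 to 0.0893, and LT vs AC was called without AC replicate 1 (-0.24, adjusted p = 0.0441).

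Camk1g encodes the gamma form, an isoform found mostly in neurons and anchored to membranes through a lipid group. Its signals ran from 359 (median 415.5) to 427 in LT and from 373 (median 397) to 494 in ST. They were 406, 487, 332, 320 and 386 on the AC arrays, and ran from 414 (median 488) to 575 in YC. In LT 3 of 6 arrays, in ST 4 of 6 and in AC 4 of 5 lay below every YC array, and the 3 aged groups overlapped one another. AC was -0.35 from YC (standard error 0.11, fold 0.784, adjusted p = 0.0408 from limma). LT was -0.29 from YC (unadjusted p = 0.01, adjusted p = 0.194) and ST was -0.24 from YC (unadjusted p = 0.0278, adjusted p = 0.174). The FKBP1b groups did not differ from AC past the threshold, at 0.07 in LT (95% interval -0.16 to 0.29) and 0.11 in ST (-0.11 to 0.33). The lowest AC values were those of replicates 3 and 4, which were also high in choroid plexus genes. Without AC replicate 3 or 4 the difference from YC was -0.30 or -0.29 (adjusted p = 0.11 and 0.112), and without all 4 choroid-high arrays it was -0.20 (adjusted p = 0.334). Leaving out YC replicate 2, 3, 5 or 6 also ended the call (adjusted p from 0.05 to 0.093), whereas without AC replicate 5 the difference was -0.36, with an adjusted p just under 0.05.

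For these CaM kinase I genes, called in opposite directions in AC vs YC, the 250 bases before the transcription start are shown from RefSeq (build GRCr8), each 5′ to 3′ on the gene's own strand. Camk1 lies on the minus strand with this window at chr4:148047146-148047395, and Camk1g on the minus strand at chr13:107430231-107430480. Capitals mark TGACG or its reverse complement CGTCA, the half-site of the element that CREB binds, searched on both strands and with no other motif.
Camk1: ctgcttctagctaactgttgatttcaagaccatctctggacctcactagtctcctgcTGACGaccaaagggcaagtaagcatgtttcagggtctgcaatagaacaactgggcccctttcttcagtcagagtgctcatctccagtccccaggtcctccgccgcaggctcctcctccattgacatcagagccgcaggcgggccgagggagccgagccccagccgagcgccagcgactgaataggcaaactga
Camk1g: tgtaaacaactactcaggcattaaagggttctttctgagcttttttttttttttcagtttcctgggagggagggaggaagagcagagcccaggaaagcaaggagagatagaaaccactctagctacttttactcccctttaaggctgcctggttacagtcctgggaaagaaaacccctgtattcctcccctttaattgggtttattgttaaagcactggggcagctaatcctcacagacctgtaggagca
The Camk1 window held 1 half-site, 193 bases before the start, and the Camk1g window none. Of the 10 genes 8 had an entry in the table (Camk1d and Camkk2 did not), and 3 of these 8 windows, those of Camk1, Camk2a and Camkk1, held a half-site. Of all 33469 windows 18.2% did. A match is a description of these letters and not evidence of binding.

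Camk1d encodes the delta form of CaM kinase I, and its 2 probe sets did not give the same result. Probe set 10796307 ran from 1214 (median 1375) to 1492 in LT and from 1406 (median 1458) to 1478 in ST. It had 1551, 1348, 1423, 1295 and 1073 on the AC arrays, and ran from 1467 (median 1511) to 1655 in YC. In LT 4 of 6 arrays, in ST 5 of 6 and in AC 4 of 5 lay below every YC array. AC was -0.21 from YC (standard error 0.066, fold 0.863, adjusted p = 0.0454 from limma), LT was -0.17 from YC (unadjusted p = 0.0156, adjusted p = 0.241) and ST was -0.09 (adjusted p = 0.445). Without AC replicate 5, the lowest array of all, AC vs YC was -0.14 (adjusted p = 0.0934). The call was also lost without any 1 of 15 other arrays (YC replicates 1, 2, 3, 4 and 6, AC replicates 2 and 4, ST replicates 2 to 6, LT replicates 1, 2 and 6), with adjusted p values of 0.0507 to 0.0896. Probe set 10796324 ran from 770 to 1030 in LT and from 841 to 896 in ST, had 847, 808, 845, 833 and 765 on the AC arrays, and ran from 824 to 971 in YC. The groups overlapped, and AC was -0.08 from YC (standard error 0.055, adjusted p = 0.384). Over the 23 arrays probe set 10796307 increased with the CA1 score (r = 0.826, rho = 0.675, adjusted p = 0.00022 and 0.00315 by permutation) and decreased with the microglia score (r = -0.76, rho = -0.676, adjusted p = 0.00156 and 0.00323). Without AC replicate 5 these r were 0.653 and -0.532, and without the 2 farthest arrays 0.676 and -0.589. Within groups they were 0.0134 and -0.0593 in LT, 0.485 and -0.536 in ST and 0.504 and -0.295 in YC (n = 6 each). The microglia score also separated AC from YC, and its part in the call was not tested. Which transcripts of Camk1d each probe set covers was not examined.

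**Figure D2:**
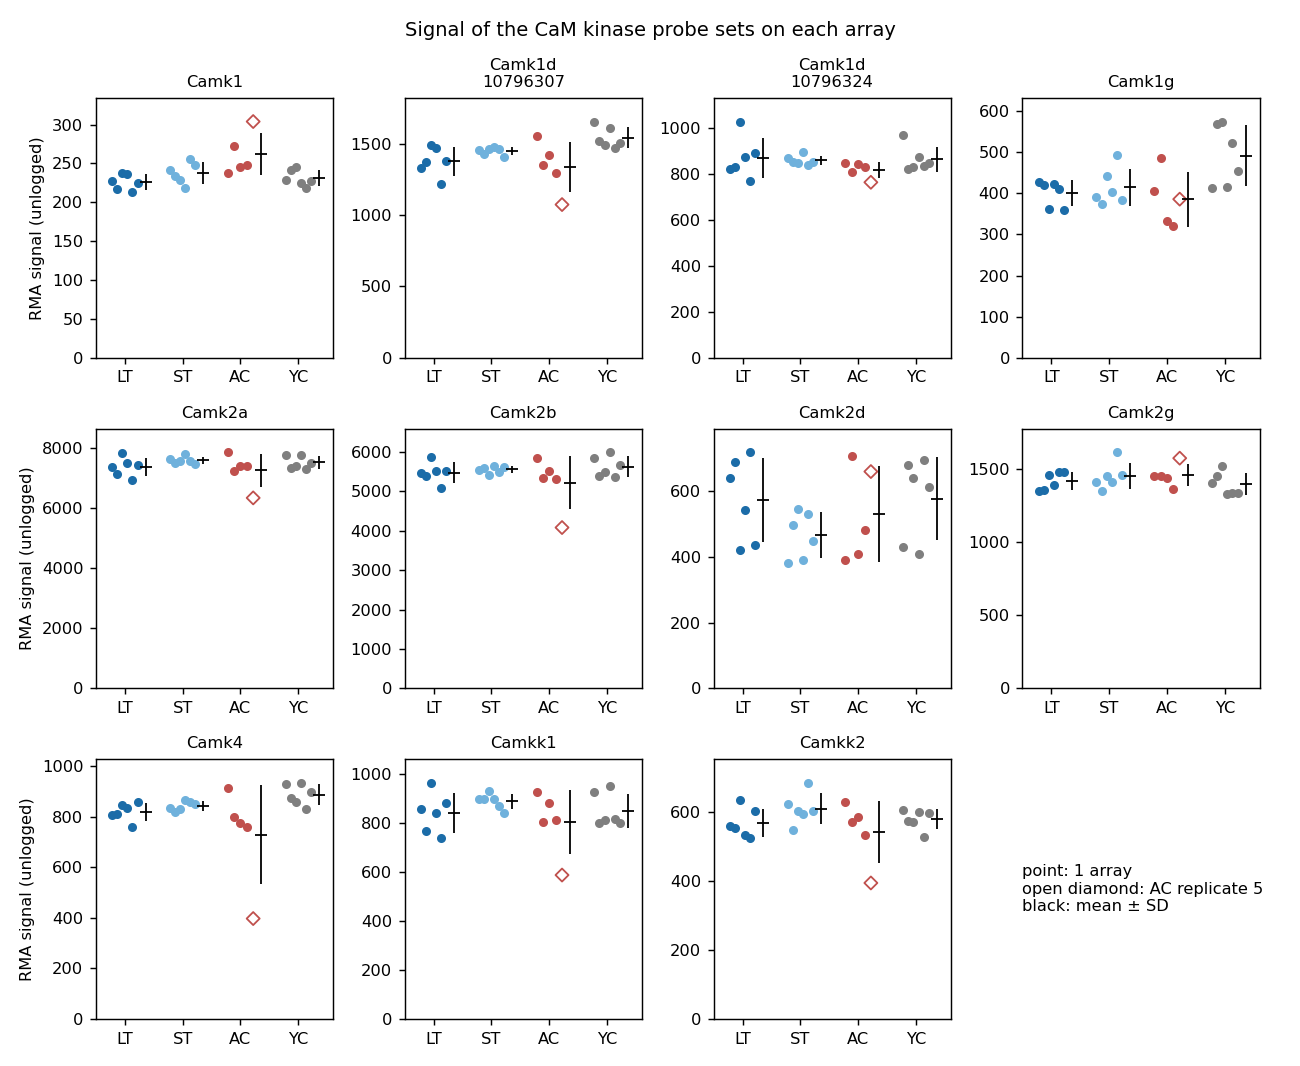
Unlogged RMA signal (vertical axes from 0) of the 11 CaM kinase probe sets on each LT, ST, AC and YC array. Points are arrays, the open diamond is AC replicate 5 and black marks are means ± SD; the open diamond is the lowest point of all in 7 panels and the highest in that of Camk1.

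Camk2a and Camk2b encode the alpha and beta subunits that make up most of the CaM kinase II of forebrain neurons, with beta also binding the actin cytoskeleton. Camk2a ran from 6932 (median 7392) to 7811 in LT and from 7461 (median 7557) to 7779 in ST. It had 7850, 7240, 7394, 7406 and 6330 on the AC arrays, against 7304 (median 7444) to 7767 in YC. All groups overlapped, with AC replicate 1 the highest of all arrays and AC replicate 5 the lowest. AC was -0.06 from YC (95% interval -0.14 to 0.03), LT was 0.02 from AC (-0.06 to 0.11) and ST was 0.07 from AC (-0.02 to 0.15).

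Camk2b ran from 5079 (median 5492) to 5882 in LT and from 5425 (median 5576) to 5640 in ST. It had 5855, 5346, 5510, 5313 and 4084 on the AC arrays, against 5371 (median 5586) to 5999 in YC. Of the AC arrays 3 of 5 lay below every YC array, replicate 5 far below the others. AC was -0.12 from YC (standard error 0.061, unadjusted p = 0.0655, adjusted p = 0.214) and -0.03 without AC replicate 5 (adjusted p = 0.601). Camk2g, the gamma subunit, which is also expressed outside the brain, had 1354 to 1482 in LT, 1354 to 1618 in ST, 1457, 1457, 1440, 1368 and 1577 on the AC arrays and 1332 to 1521 in YC. AC was 0.06 above YC (95% interval -0.03 to 0.16), and the highest AC signal was again that of replicate 5.

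Camk2d, the delta subunit, best known as the main form of the heart, had the widest span of the CaM kinase II genes within each group. Its signals ran from 420 (median 591.5) to 719 in LT and from 381 (median 472.5) to 545 in ST. They were 391, 708, 410, 481 and 660 on the AC arrays, and ran from 408 (median 626) to 694 in YC. The highest array was 1.71 times the lowest in LT, 1.43 times in ST, 1.81 times in AC and 1.70 times in YC, whereas for the other CaM kinase II genes this ratio was at most 1.43 in any group. All groups overlapped, and no difference passed: AC was -0.13 from YC (standard error 0.18, 95% interval -0.52 to 0.25), and LT was 0.29 above ST (standard error 0.18, unadjusted p = 0.12, adjusted p = 0.501).

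The spread of Camk2d followed markers of other cells and of neighbouring tissue. Its log2 signal increased with the score of thalamus markers, of which 5 of 8 were tested (Slc17a6, Prkcd, Lef1, Calb2 and Rgs16), with Pearson's r = 0.802 and Spearman's rho = 0.845 over 23 arrays. Both have a permutation p of 1e-05, the smallest that 100000 resamples can give (adjusted p = 0.000134 and 0.000101 over 121 relations of 11 probe sets with 11 lists). The relation remained without the 2 arrays farthest from the median score (r = 0.754) and without AC replicate 5 (r = 0.911), and within groups r was 0.946 in LT, 0.915 in ST and 0.972 in YC (n = 6 each). It was less regular in AC, where too few arrays remain for a correlation: thalamus scores of -0.32, 0.33, -0.01, 0.13 and -0.29 stood beside Camk2d signals of 391, 708, 410, 481 and 660 (replicates 1 to 5), so replicate 5 was high in Camk2d with a low score. Camk2d also decreased with the score of general pyramidal neuron markers (r = -0.823, rho = -0.898) and of dentate granule markers (r = -0.667, rho = -0.856), and increased with that of interneurons (r = 0.794, rho = 0.825). With the thalamus score as a covariate, a setting chosen after the data were seen, AC vs YC for Camk2d was -0.05 with a standard error of 0.12 and LT vs ST was -0.0066 with one of 0.13. In bulk tissue, fewer cells of a type and less RNA in each cell cannot be told apart, and the part of neighbouring tissue in the spread of Camk2d was not tested beyond that covariate.

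**Figure D3:**
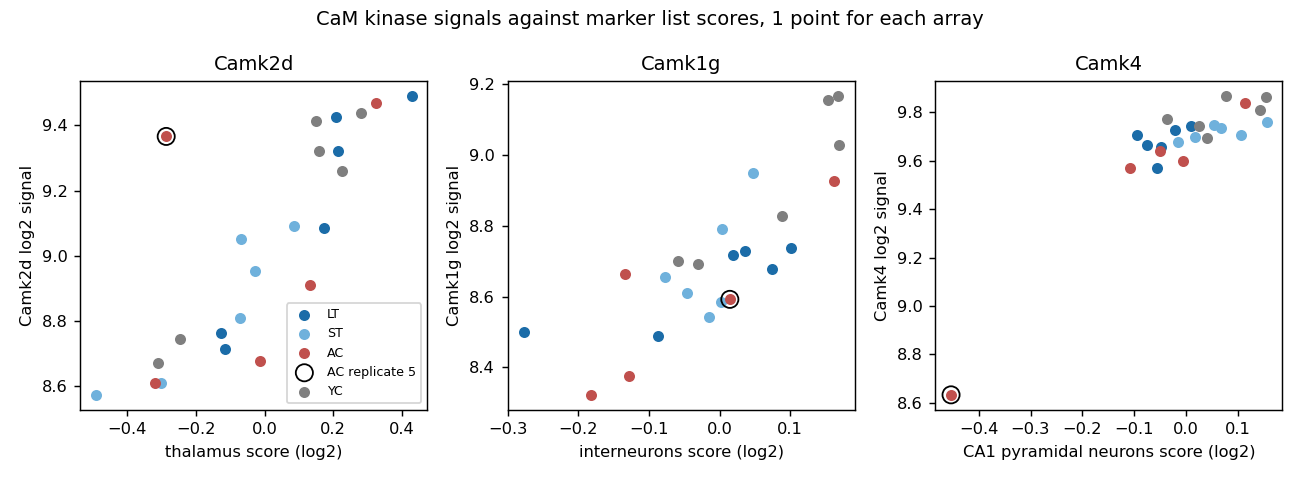
Log2 signal of Camk2d, Camk1g and Camk4 (vertical axes) against the list scores of thalamus, interneuron and CA1 pyramidal neuron markers (horizontal axes, log2), 1 point for each array, coloured by LT, ST, AC and YC, with AC replicate 5 ringed. Camk2d climbs with the thalamus score in LT, ST and YC (r of 0.915 to 0.972) but not steadily in AC, Camk1g climbs with the interneuron score, and AC replicate 5 sits apart in the panels of Camk2d and Camk4.

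Camk1g followed the interneuron score, made of 10 genes that include Gad1, Gad2 and Slc32a1, with r = 0.825 and rho = 0.849 (permutation p = 1e-05 for each, adjusted p = 0.000134 and 0.000101). It remained without the 2 farthest arrays (r = 0.825) and without AC replicate 5 (r = 0.834), and was 0.854 in LT, 0.631 in ST and 0.927 in YC (n = 6 each). The AC arrays with the lowest Camk1g, replicates 3 and 4, had interneuron scores of -0.13 and -0.18, while the median score was -0.13 in AC and 0.12 in YC. The score thus moved with the difference of Camk1g between AC and YC, and its part in that difference was not tested.

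Camk4 encodes CaM kinase IV, the nuclear CREB kinase. It ran from 760 (median 824) to 857 in LT and from 818 (median 843) to 867 in ST. It had 914, 797, 775, 759 and 397 on the AC arrays, against 829 (median 885.5) to 934 in YC. AC replicate 5, at 48.9% of the mean of the other 4 AC arrays, was the lowest of all, and the other 4 ran from 759 to 914, across the whole span of LT and ST. In LT 3 of 6 arrays, in ST 1 of 6 and in AC 4 of 5 lay below every YC array. AC was -0.34 from YC (standard error 0.13, unadjusted p = 0.0145, adjusted p = 0.0911), and ST was 0.27 above AC (unadjusted p = 0.0481, adjusted p = 0.506) and LT 0.22 above AC (unadjusted p = 0.0918, adjusted p = 0.467). Without AC replicate 5 these were -0.13 (adjusted p = 0.0678), 0.06 (adjusted p = 0.755) and 0.02 (adjusted p = 0.897), so most of each estimate was that of 1 array. For AC vs YC the standard error was then 0.046 and the unadjusted limma p 0.01, against 0.13 and 0.0145 with it. AC vs YC was called in 1 of the 23 fits that left out 1 array, that without AC replicate 1 (-0.43, adjusted p = 0.0254). Over the 23 arrays Camk4 increased with the CA1 score (r = 0.891, rho = 0.767, adjusted p = 0.000134 and 0.000346 by permutation), and r was 0.731 without AC replicate 5 and 0.748 without the 2 farthest arrays. Within groups r was 0.41 in LT, 0.728 in ST and 0.597 in YC (n = 6 each). Camk4 also decreased with the microglia score (r = -0.81, rho = -0.587, adjusted p = 0.00171 and 0.0152 by permutation), with r of -0.524 without AC replicate 5 and -0.544 without the 2 farthest arrays. With this score r within groups was -0.218 in LT, -0.422 in ST and 0.144 in YC (n = 6 each). The permutation shuffled arrays across all 4 groups, so its p also takes in the difference of the score between aged and young arrays.

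Camkk1 and Camkk2 encode the upstream kinases, which phosphorylate CaM kinases I and IV, and Camkk2 acts also on the energy sensor AMPK. Camkk1 had 738 to 965 in LT, 841 to 932 in ST, 927, 804, 884, 813 and 588 on the AC arrays and 799 to 954 in YC. Camkk2 had 526 to 635 in LT, 549 to 686 in ST, 629, 573, 587, 533 and 395 on the AC arrays and 529 to 607 in YC. In both genes the 4 AC arrays other than replicate 5 lay among those of the other groups, and replicate 5 was at 68.6% and 68.0% of their mean. ST was above AC by 0.18 in Camkk2 (unadjusted p = 0.0429, adjusted p = 0.491) and by 0.16 in Camkk1 (unadjusted p = 0.0747, adjusted p = 0.556). Without AC replicate 5 these were 0.07 (adjusted p = 0.778) and 0.06 (adjusted p = 0.854), and the differences of AC from YC, -0.11 in Camkk2 and -0.10 in Camkk1, were -0.001 and 0.01.

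AC replicate 5 was thus the lowest of the 23 arrays in 7 of the 11 probe sets (both of Camk1d, Camk2a, Camk2b, Camk4, Camkk1 and Camkk2), the highest in Camk1, and the highest of its group in Camk2g. No other array was lowest in more than 1. Without it the median of the 11 differences was -0.03 in AC vs YC, against -0.11 with it, 0.05 against 0.10 in ST vs AC and -0.0092 against 0.08 in LT vs AC, which all share the AC arrays. Of the 11 probe sets, 1 (Camk1g) was then called in AC vs YC, where 11.9% of all probe sets were.

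**Figure D4:**
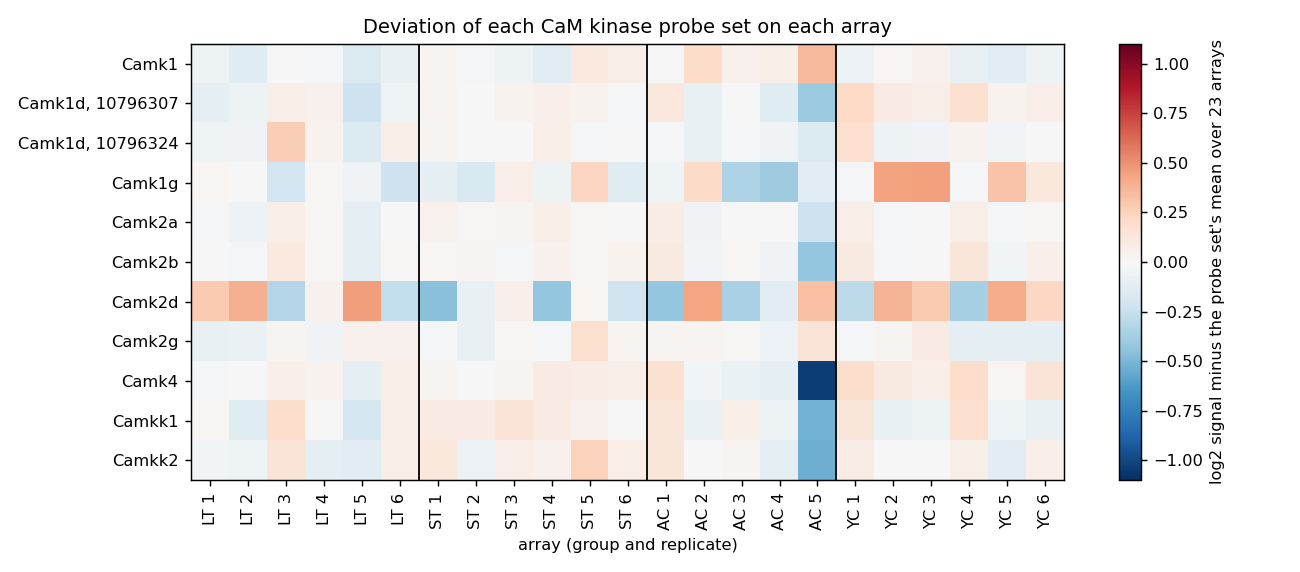
Deviation of the log2 signal of each CaM kinase probe set (rows) from its own mean over 23 arrays, on each array (columns, grouped as LT, ST, AC and YC); blue is below and red above the mean. The column of AC replicate 5 holds the deepest blue, Camk4 at -1.04, and the row of Camk2d changes colour within every group.

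Whether FKBP1b expression in old animals moved the CaM kinases was addressed by ST and LT against AC, which share the AC arrays. None of the 11 probe sets was called in ST vs AC, where 0% of all probe sets were, in LT vs AC, where 0.075% were, or in the average of both FKBP1b groups against AC, where 0.03% were. At an unadjusted p under 0.05 limma gave 3 members in ST vs AC (Camk1, Camk4 and Camkk2). It gave 1 in LT vs AC (Camk1) and 2 in the average (Camk1 and Camk4). For comparison, 9.82% of all probe sets were under 0.05 in ST vs AC, 12.6% in LT vs AC and 10.5% in the average. The methods' one-way analysis with Fisher's least significant difference called 0 members in each after adjustment, whereas the methods test at an unadjusted p of 0.05. Its unadjusted F test p across the 4 groups was 0.0088 for Camk1, 0.0202 for Camk1d probe set 10796307 and 0.0223 for Camk1g. This F test compares all 4 groups and not FKBP1b against AC alone. By unadjusted tests at 0.05 the paper lists Camk1 as higher with age and lowered by FKBP1b. Of the members 3 of 11 lay below 0 in ST vs AC (median 0.10), against 43.3% of all probe sets (median 0.01), and 2 of 11 in LT vs AC (median 0.08), against 51.8% (median -0.0031). Without AC replicate 5 it was 2 of 11 in ST vs AC and 7 of 11 in LT vs AC, where the median turned to -0.0092. Camk1 was below 0 in both comparisons with and without that array.

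LT and ST were also set against each other and against YC. None of the members was called in LT vs ST, where 0.0075% of all probe sets were, and none had an unadjusted p under 0.05, where 12.4% of all did. Of the 11, 9 were below 0 with a median of -0.04, against 57.5% of all probe sets with a median of -0.01. None was called in ST vs YC, where 4.15% of all probe sets were, or in LT vs YC, where 1.03% were. Unadjusted p values under 0.05 were those of Camk1g in ST vs YC (21.7% of all probe sets) and of Camk1g and Camk1d probe set 10796307 in LT vs YC (13.4% of all), given above. The methods' analysis called 0 members in each of these 3 comparisons. In LT vs AC and in ST vs AC the 95% interval of a difference reached from 0.08 (Camk2a) to 0.38 (Camk2d) to either side of the estimate, with a median of 0.14 over the 11 probe sets.

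The members fell into blocks when compared with one another over the 23 arrays. Camk2a, Camk2b, Camk4, Camkk1, Camkk2 and Camk1d probe set 10796307 had pairwise r of 0.76 to 0.95, as a description that AC replicate 5 enters. Camk2d was negatively related to all of these (r from -0.69 to -0.33) and positively to Camk1g (r = 0.60), and Camk1g had r between -0.14 and 0.28 with them. Camk2a, Camk2b and Camkk1 followed the dentate granule score, with r of 0.93 to 0.94 and rho of 0.85 (permutation p = 1e-05, the smallest possible), and r was 0.79 to 0.85 without AC replicate 5. Within LT and YC these r were 0.867 to 0.937, whereas within ST they were 0.334 for Camk2a, 0.949 for Camk2b and -0.371 for Camkk1 (n = 6 each). Among 12603 genes, those most like Camk1 were Mmp9, a matrix protease, Bicd1, a dynein adaptor, and Tenm2, a synaptic adhesion protein (r from 0.84 to 0.86). Those most like Camk1d probe set 10796307 were Gria3, an AMPA receptor subunit, Chn1 and Gpr155 (r = 0.93 for each), and those most like Camk1g were Asic1, an acid-sensing channel, Lin7a, a synaptic scaffold protein, and Prkacb, a catalytic subunit of protein kinase A (r from 0.89 to 0.91). These are likenesses of pattern with no test, over 23 arrays that include AC replicate 5.

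Genes around the kinases were taken from a list of 82 in 9 roles, of which 75 were tested, and the others were not analysed here. In AC vs YC 3 were called higher and 4 lower, 7 of 75 against 9.75% of all probe sets, with a median of -0.04. None was called in ST vs AC, LT vs AC or their mean, where the list's medians were 0.02, 0.0059 and 0.01. Eef2k, the calmodulin-dependent kinase of elongation factor 2, which slows translation, averaged 225 ± 24 in AC (SD, n = 5) and 186 ± 5.2 in YC (SD, n = 6). All AC arrays (203 to 256) lay above all YC arrays (179 to 193), and the difference was 0.27 (adjusted p = 0.00384). AC and YC arrays were without overlap in 5.09% of all probe sets. Of the phosphatases that reverse CaM kinase action, Ppp1ca, a catalytic subunit of protein phosphatase 1, was lower by 0.16 in AC (1578 ± 102 in AC, 1765 ± 71 in YC, adjusted p = 0.0123), and Ppp2ca, that of protein phosphatase 2A, was lower by 0.10 (3762 ± 113 in AC, 4038 ± 87 in YC, adjusted p = 0.0111). Ppp2ca has 2 tested probe sets, and only the one with the higher mean signal was read.

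Among CREB, its relatives and its coactivators, 2 of 7 genes were called in AC vs YC, both higher, where 5.56% of all probe sets were called higher. Atf1, a CREB relative, was higher in AC by 0.23 (415 ± 36 in AC, 355 ± 25 in YC, adjusted p = 0.0222), and Crtc2, a CREB coactivator, by 0.17 (468 ± 16 in AC, 416 ± 30 in YC, adjusted p = 0.039). Of 7 genes of this role 6 were above 0 (median 0.05), against a median of -0.0062 over all probe sets. All 13 CREB target genes were below 0 in AC vs YC (median -0.19), as were 52.5% of all probe sets (median -0.0062). Of these genes 2 were called lower, where 4.18% of all probe sets were. Nr4a2, an orphan nuclear receptor induced by activity, was lower by 0.47 (993 ± 159 in AC, 1362 ± 110 in YC, adjusted p = 0.00332), with every AC array under every YC array. Homer1, a synaptic scaffold gene with an activity-induced short form, was lower by 0.16 (786 ± 35 in AC, 879 ± 38 in YC, adjusted p = 0.0111), also without overlap, which 5.09% of all probe sets had. Fos, Egr1, Arc, Npas4 and Bdnf, immediate early and activity-regulated genes, lay between -0.52 and -0.16 and did not pass (adjusted p from 0.12 to 0.324). In LT vs AC and in ST vs AC 12 of these 13 genes lay above 0 and 1 below (medians 0.11 and 0.13), with 0 called in each. Of all probe sets 51.8% lay below 0 in LT vs AC (median -0.0031) and 43.3% in ST vs AC (median 0.01). Both comparisons share the AC arrays with AC vs YC, and for these genes they are not given without AC replicate 5.

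**Figure D5:**
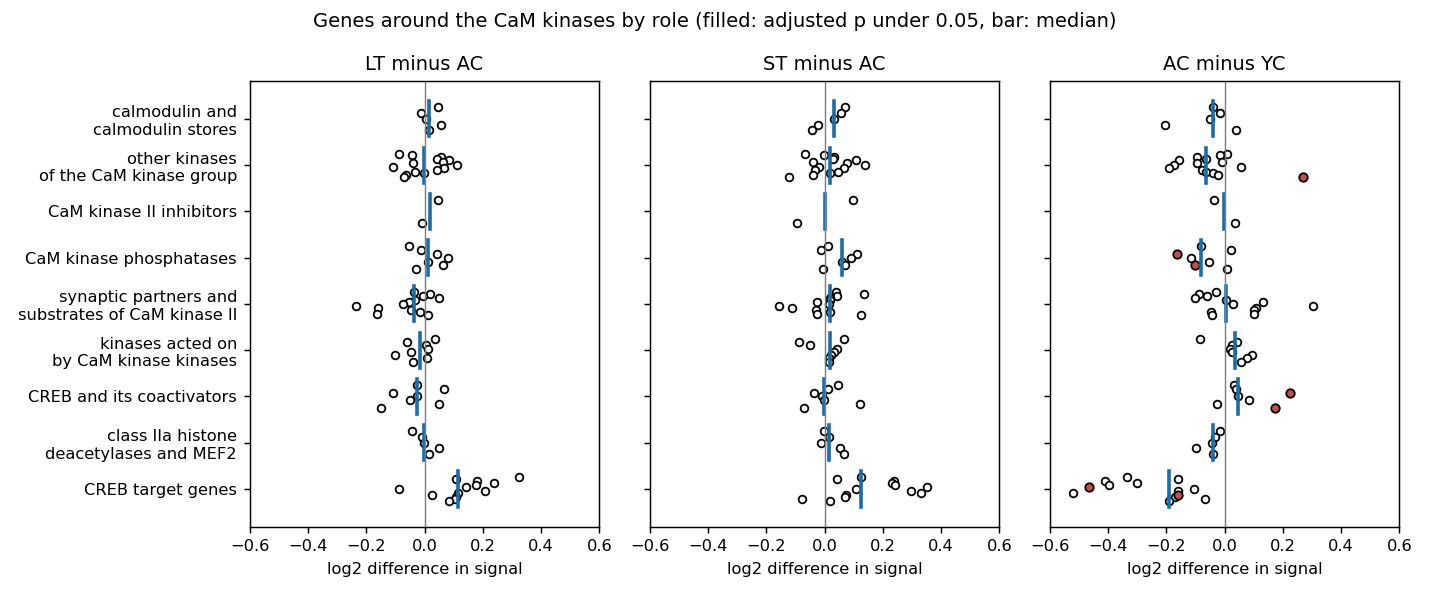
Log2 differences in signal (horizontal axes) of 75 genes around the CaM kinases in 9 roles (rows) for LT minus AC, ST minus AC and AC minus YC. Points are genes, filled where the adjusted p was under 0.05, and blue bars are medians; all 13 CREB target genes lie left of 0 in AC minus YC, and 12 of 13 lie right of 0 in each of the other panels.

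These activity-regulated genes shared the outlying array of the members. AC replicate 5 had 577 for Egr1, 275 for Arc and 76 for Npas4, each the lowest of its group, and without it the AC vs YC differences were -0.13, -0.07 and -0.26, against -0.41, -0.30 and -0.52 with it. Nr4a2 (-0.39, adjusted p = 0.00652), Homer1 (-0.16, adjusted p = 0.0167), Eef2k (0.24, adjusted p = 0.0083), Atf1 (0.25, adjusted p = 0.0184), Ppp1ca (-0.14, adjusted p = 0.0239) and Ppp2ca (-0.09, adjusted p = 0.0187) remained called without it, Crtc2 did not (0.16, adjusted p = 0.0569), and Shank3, a postsynaptic scaffold, was called only then (0.15, adjusted p = 0.0291, against 0.13 and 0.0582 with all arrays). So were Ep300, a CREB coactivator (0.11, adjusted p = 0.0186, against 0.08 and 0.0749), and Gap43, which binds calmodulin at the membrane of growing axons (-0.35, adjusted p = 0.0371, against -0.20 and 0.326). In the roles with no call, the gene with the smallest p of the F test was Calm2, a calmodulin gene, for calmodulin and its stores (-0.04 in AC vs YC, adjusted p = 0.412). Calm2 has 2 tested probe sets, and only the one with the higher mean signal was read. It averaged 5806 in AC and 5970 in YC. The paper lists Calm2 at higher signals, lower with age and raised by FKBP1b, so that result comes from a probe set not read here. For the inhibitors the gene with the smallest F test p was Camk2n1, an endogenous inhibitor of CaM kinase II (-0.04, adjusted p = 0.642). For synaptic partners it was Shank3, with the values given above. It was Akt1 for kinases acted on by CaM kinase kinases (0.08, adjusted p = 0.15) and Mef2a, a transcription factor held back by class IIa histone deacetylases, for that role (-0.10, adjusted p = 0.0856).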

How the data were processed

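The authors deposited signal intensities per probe set, made with the Robust Multiarray Average (RMA) algorithm; the values are unlogged and rounded (4 to 20673) with 758 blanks, none in the members. For that step no software version is stated in the labels or methods. Probe sets were tied to genes through the platform annotation (15307 carry 1 symbol, 323 several, 13581 none). Log2 intensities of 13339 probe sets were fitted with limma 3.58.1 in R 4.3.3, with 1 mean for each group and no covariate, tested on simulated data first, and adjusted at 0.05. For a gene of the pathway or marker lists with several probe sets, the one with the highest mean signal was used. Relations over arrays were tested by permutation across all 4 groups (100000 resamples), so their p values also take in differences between groups. All members were named, with the pathway genes called in AC vs YC or against AC and the smallest F test p of each role, and likeness for members at an unadjusted F test p of 0.05. Members and lists were chosen with earlier results of these data known. Each array is 1 rat, and the number of arrays limits the precision. The alternatives tried left out single arrays or used the methods' analysis, other filters, scalings, covariates, variance models and probe sets. Of these, 2 that leave out several arrays and 1 with the thalamus score as a covariate were added after seeing the data.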

Additional observations from a re-analysis of the deposited data

Results flagged for a closer look

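In 44 sets of arrays, 1 for each probe set and group, the gap of the farthest array to its nearest neighbour was divided by the range of the group on the log2 scale, and 3 passed Dixon's 95% critical value, where chance gives about 1 in 20. Camk4 in AC had a ratio of 0.777 and Camk2b in AC one of 0.730, in both cases through AC replicate 5, at 397 and 4084. Camk1d probe set 10796324 in YC had a ratio of 0.634, through YC replicate 1 at 971. AC replicate 5 was the highest or lowest of its group in 9 of 11 probe sets.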

How the results depend on the processing

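The members called in AC vs YC numbered 3. With 1 array left out they numbered 0 to 4 (4 without AC replicate 1), with 0 without YC replicate 2, YC replicate 6 or AC replicate 4. They numbered 0 with the methods' analysis, with the compared groups alone, without the 5 arrays over 0.5 in choroid plexus score, and in both added settings that leave out arrays (the 4 over 1 in that score, alone or with AC replicate 5). They numbered 1 with no signal filter, equal array medians, RNA integrity number as a covariate or the choroid plexus score as a covariate. In the F test 0 members passed, 0 to 2 with 1 array left out (2 without AC replicate 1), and 1 with equal array medians or the choroid plexus score as a covariate. In LT vs AC the range was 0 to 1 with 1 array left out, and in the other comparisons no setting called a member. Of the pathway list, 7 genes were called in AC vs YC, 5 to 14 with 1 array left out (14 without AC replicate 1), 2 without the arrays over 0.5 or the 4 over 1 in choroid plexus score, 2 with the compared groups alone and 0 without those 4 and AC replicate 5; in ST vs AC the range was 0 to 1. Over all probe sets 1300 were called in AC vs YC, 796 without AC replicate 3, 820 without AC replicate 4, 853 without YC replicate 2, 386 without the arrays over 0.5 in choroid plexus score, 398 without the 4 over 1, 262 without those and AC replicate 5, and 2355 with probe sets of any annotation.

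Of 17 settings other than single arrays, Camk1 was called in 8, Camk1d probe set 10796307 in 8 and Camk1g in 10, with differences of 0.14 to 0.23, -0.23 to -0.09 and -0.38 to -0.13. Camk4 turned sign without AC replicate 5 and the 4 choroid-high arrays, to -0.0173 in ST vs AC (adjusted p = 1) and -0.0231 in the average of both FKBP1b groups against AC (adjusted p = 0.986), the 2 of 13 differences followed through all settings that turned. Without AC replicate 5 alone, small differences that were not called also turned, in LT vs AC those of Camk1d probe set 10796307, Camk2a, Camk2b, Camkk1 and Camkk2, in ST vs AC that of Camk2g, in their average those of Camk2a, Camk2d and Camk2g and in AC vs YC that of Camkk1. The cause was not tested. With a replicate block 2 members were called in AC vs YC (Camk1 had an adjusted p of 0.0708), 8 pathway genes were, and no other count of members changed. The numbers do not pair the rats: over 33 same-numbered pairs the correlation of deviations from the group means was -0.38 to 0.20 (7 over 0.1), and over 165 other pairs -0.42 to 0.56.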

Other observations

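Among the members whose likeness was not asked for by the rule, and so chosen after their values were seen, Camk4 was most like Htr5b, a serotonin receptor gene (r = 0.98), Kcnh7, a potassium channel gene (r = 0.97), and Rasgrp1 (r = 0.97), over 23 arrays that include AC replicate 5. Camk2d was most like Atp2b4, a plasma membrane calcium pump gene (r = 0.95), Gabrg3, a GABA receptor subunit gene (r = 0.95), and Gpr165 (r = 0.94).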
